A study of Capra hircus with 11 samples.

Results

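The members of the solute carrier (SLC) superfamily were examined in single cells of 5 goat (Capra hircus) cell populations. A gene row was taken as a member when its symbol began with SLC, a family number, the letter A and a member number, and when its level reached 10 CPM in at least 1 of the 5 tables. CPM is the UMI count of a gene scaled to 1000000 UMIs of a table, leaving out ribosomal protein genes. Of 16678 gene rows, 248 fit the pattern and 135 of these reached the minimum. The members were thus chosen by their measured levels, so every level and fold below describes these tables and none is a test. Members just inside the minimum included SLC23A1 at 10.3 CPM and SLC26A6 at 10.9 CPM, and those just outside were SLC16A9 at 9.79 CPM, SLC7A11 at 9.73 CPM, SLC27A4 at 9.49 CPM, SLC40A1 at 9.30 CPM and SLC9A3R2 at 9.24 CPM. Among the members, 4 symbols (SLC2A4RG, SLC4A1AP, SLC7A6OS and SLC9A3R1) name proteins that are not carriers themselves, and they were kept because the rule takes them in.

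The study asked how fibroblasts change when small molecules are used to turn them into mammary epithelial cells. BFRTV0d was ear fibroblasts before induction, BFRTV4d and BFRTV8d were the same kind of cells after 4 and 8 days in the BFRTV induction medium on Matrigel, CiMECs were day 8 cells passaged on in goat mammary epithelial cell medium, and GMECs were naturally derived goat mammary epithelial cells. No source used here gives the breed, age or number of the animals. The labels list 3, 3, 2, 1 and 2 samples for these groups, but every group came as 1 pooled table of 10x Genomics 3′ counts whose cell names carry no sample, so there was no replicate, no p-value and no spread between samples.

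Solute carriers are membrane proteins that move small molecules across the plasma membrane and the membranes of organelles, either down a gradient or coupled to sodium, protons or an exchanged solute. Many work in pairs or in series, such as the heavy chain SLC3A2, which carries the light chain SLC7A5 to the cell surface, or the mitochondrial family SLC25, which links the matrix to the cytosol. In the lactating mammary gland they bring in the glucose, amino acids, phosphate, zinc and vitamins from which milk is made, with SLC2A1 being the main glucose transporter of the tissue.

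The tables held 10670 (BFRTV0d), 10203 (BFRTV4d), 10152 (BFRTV8d), 5188 (CiMECs) and 5641 (GMECs) barcodes, with between 97203521 and 117500853 UMIs each, and any pair of tables shared 37 to 147 barcodes. Ribosomal protein genes were absent from the 3 BFRTV tables, whereas CiMECs and GMECs list 74, and the lowest UMI count of a barcode was 500 in the latter and at least 1951 in the former. Table set and group therefore cannot be told apart when CiMECs are set beside BFRTV8d or GMECs beside BFRTV0d. Cells were sorted by marker UMIs into an epithelial-marker class (EPCAM, CDH1, keratins and others), which held 6.21%, 48.1%, 95.7%, 99.4% and 99.9% of the cells in the order above, and a mesenchymal-marker class (collagens, DCN, LUM and others), which held 92.4%, 43.0%, 2.19%, 0.0771% and 0%. The label "ear fibroblasts" thus matched its markers in most but not all BFRTV0d cells. In sums over a whole table, fewer cells of a type and less RNA per cell cannot be told apart. The defining endothelial markers summed to at most 3.01 CPM in any table. Of 5 immune markers, 2 to 4 were listed in each table with a summed level of 18.9 CPM in CiMECs to 62.7 CPM in GMECs, most of it CD14, at 14.7 to 59.9 CPM, while PTPRC was listed in none. The 3 adipocyte markers summed to 16.9 CPM in BFRTV0d, of which CIDEC made up 16.2 CPM, and to at most 1.89 CPM in the other tables. The part of such cells in the results was not tested.

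The summed level of the 135 members was highest in the BFRTV tables and lowest in CiMECs. It was 5222 CPM in BFRTV0d, 4934 CPM in BFRTV4d, 5302 CPM in BFRTV8d, 2904 CPM in CiMECs and 4430 CPM in GMECs. The number of members at or above 10 CPM was 106, 97, 103, 55 and 80 in the same order, a count that was not made over all genes. The median level of the members was 22.3, 15.6, 18.0, 7.91 and 13.7 CPM. Over all 9787 genes above the minimum the median was likewise lowest in CiMECs, at 28.0, 22.1, 24.1, 13.1 and 19.5 CPM. The lowest level of 91 members (67.4%) was in CiMECs, where the lowest level of 50.4% of all 9787 genes over the minimum was also found, and the highest level of 68 members (50.4%, against 43.6% of all genes) was in BFRTV0d. The levels varied widely, since 43 members were at least 10-fold apart between their highest and lowest table and only 13 were less than 2-fold apart. The same counts were not made over all genes. Between tables, the rank of the members was most alike for BFRTV4d and BFRTV8d (Spearman's rho 0.85 over 135 members, 0.88 over all genes) and for CiMECs and GMECs (0.83 and 0.88), and least alike for BFRTV0d and BFRTV8d (0.47 and 0.62). These coefficients are across genes, which are not independent replicates.

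**Figure D1:**
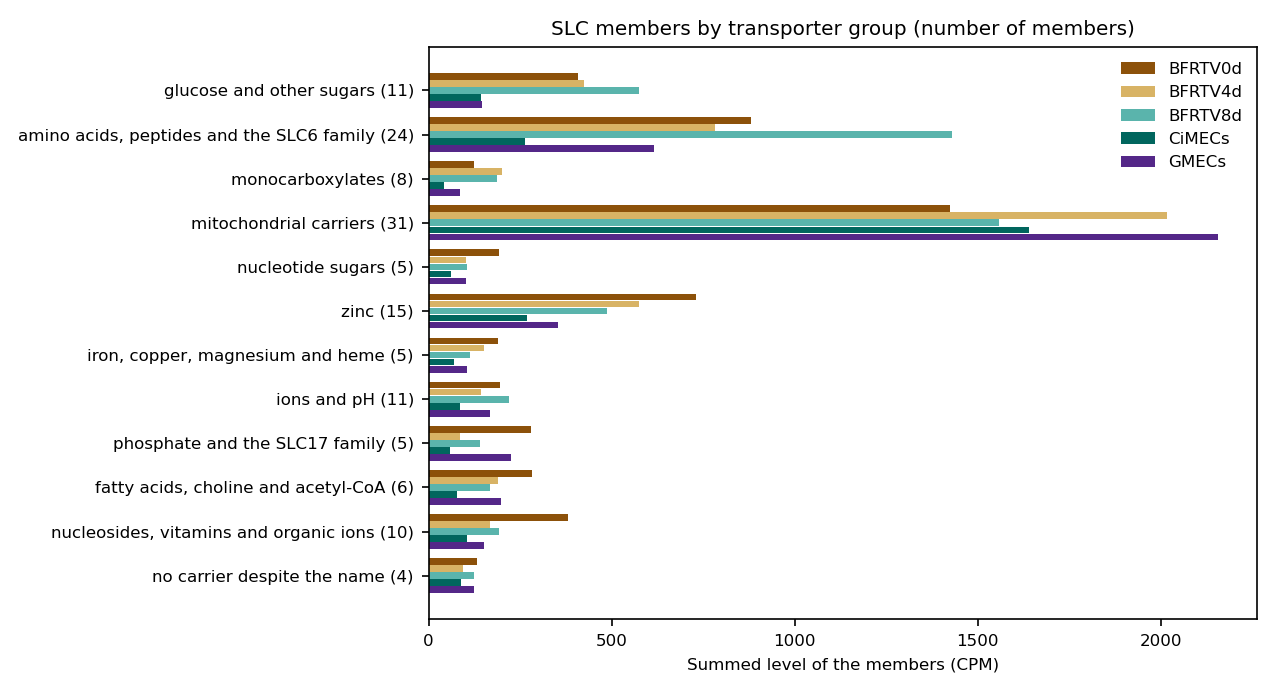
Summed level of the members of each transporter group (horizontal axis, CPM) in the 5 tables (coloured bars, 1 per table, no error bar because each group is 1 table). The mitochondrial carriers held the largest sum in every table, from 1424 CPM in BFRTV0d to 2155 CPM in GMECs, and the amino acid group reached 1431 CPM in BFRTV8d against 263 CPM in CiMECs.

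A member was counted as higher or lower when its CPM differed at least 2-fold between 2 tables and reached 10 CPM in 1 of them. At day 4, 21 of 122 compared members were higher than in BFRTV0d and 40 were lower, beside 13.4% higher and 25.4% lower of all genes, and the median log2 fold was -0.51 against -0.39 over all genes. At day 8, 26 of 128 were higher than in BFRTV0d and 36 were lower, beside 19.7% and 28.0% of all genes. Scaling moved this balance, as 41.9% of the day 8 calls were higher in the main scaling and 52.4% with TMM factors. Between day 4 and day 8 there was less difference, with 13 of 110 members higher at day 8 and 7 lower, beside 10.7% and 7.10% of all genes. For the course over the 3 days each step was read by the 2-fold difference alone, among members that reached 10 CPM on at least 1 of the 3 days, so these counts take in steps left out above. By that reading 56 members stayed within 2-fold at both steps, 33 were lower at day 4 and then within 2-fold, 16 were higher at day 4 and then within 2-fold, and 7 were higher at both steps, namely SLC12A7, SLC16A11, SLC38A11, SLC39A8, SLC4A9, SLC6A6 and SLC8A2. These patterns were not counted over all genes, of which 25.4% were lower and 13.4% higher at day 4 in the count above. Whether the members differ from other genes in their course is therefore not shown.

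In CiMECs, 3 of 84 compared members were higher than in GMECs and 35 were lower, beside 5.53% and 26.0% of all genes, and the median log2 fold was -0.81 against -0.51 over all genes. TMM factors moved every log2 fold of this comparison by 0.50, and the share of higher members among those called then went from 7.895% to 32.1%. Against BFRTV8d, 6 of 108 members were higher in CiMECs and 65 lower, beside 9.94% and 43.3% of all genes, with a TMM shift of 0.74 that took the higher share from 8.45% to 28.8%. Against BFRTV0d, 14 of 117 members were higher in GMECs and 50 lower, beside 12% and 31.0% of all genes, with a shift of 0.37 that took it from 21.9% to 35.8%. Relative to the median of all genes, the log2 folds of CiMECs over BFRTV8d were still -8.97 for SLC6A6, -3.91 for SLC7A5 and -3.46 for SLC2A1. The last 2 comparisons cross the table sets. Since the comparisons share tables, their counts are not independent of each other.

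**Figure D2:**
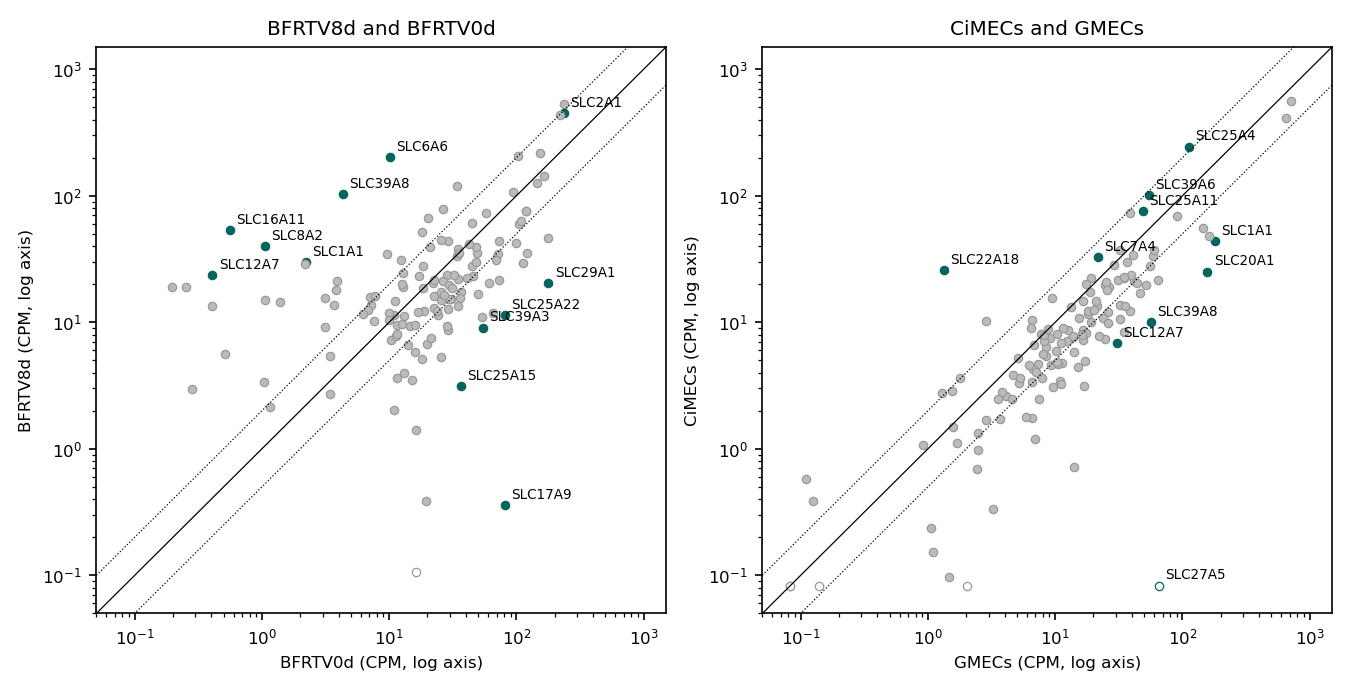
Level of every member in BFRTV8d against BFRTV0d (left) and in CiMECs against GMECs (right), both axes CPM on a log scale, with 1 point per member, the solid line at equal levels, dotted lines at 2-fold and open points for unlisted genes, placed at the fewest cells of any gene in that table. SLC6A6, SLC39A8, SLC16A11 and SLC8A2 lie far above the lines on the left and SLC17A9 far below, while on the right most members lie below equality.

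Amino acid transporters and the SLC6 family, with 24 members, showed the largest gain between day 4 and day 8, and their summed level was 880.5 CPM at day 0, 783 CPM at day 4, 1431 CPM at day 8, 263 CPM in CiMECs and 616 CPM in GMECs. Of 18 members compared between day 4 and day 8, 6 were higher at day 8 and 1 was lower, beside 10.7% and 7.10% of all genes. The taurine transporter SLC6A6 stood at 10.2 CPM in BFRTV0d, 58.8 CPM in BFRTV4d, 203 CPM in BFRTV8d, 0.235 CPM in CiMECs and 1.05 CPM in GMECs. Its highest level was thus at day 8, 19.98-fold above day 0 (95% counting interval 18.9 to 21.2), and both CiMECs and GMECs were below the fibroblasts. The creatine transporter SLC6A8 had the same order over the 3 days, at 34.3, 85.4 and 119.5 CPM, with 9.89 CPM in CiMECs and 26.0 CPM in GMECs. The glycine transporter SLC6A9 was highest in BFRTV0d at 44.4 CPM, lower at day 4 at 15.6 CPM, and 27.7 CPM at day 8, with 1.78 CPM in CiMECs and 5.93 CPM in GMECs.

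The system A transporter SLC38A2, which takes up small neutral amino acids with sodium, had the highest mean level of the group over the 5 tables. It stood at 221 CPM in BFRTV0d, 188 CPM in BFRTV4d, 437 CPM in BFRTV8d, 47.7 CPM in CiMECs and 162 CPM in GMECs, where SLC1A1 was higher at 181 CPM. SLC38A2 was 2.32-fold higher at day 8 than at day 4 (2.28 to 2.36). The heavy chain SLC3A2 stood at 102 CPM, 86.1 CPM and 208 CPM over days 0, 4 and 8, and at 30.1 CPM in CiMECs and 36.6 CPM in GMECs, so it too was higher at day 8 than at day 4 (2.41-fold, 2.35 to 2.47). Its light chain SLC7A5, an exchanger of large neutral amino acids, stayed within 2-fold, with 146 CPM, 94.9 CPM and 126 CPM over the 3 days. SLC7A5 was far lower in the other set, at 4.88 CPM in CiMECs and 10.4 CPM in GMECs, which is 25.8-fold below BFRTV8d for CiMECs (23.2 to 28.8). The glutamine transporter SLC1A5 was lower at day 4 (32.4 CPM) than at day 0 (118 CPM) and at day 8 (75.9 CPM), and stood at 21.3 CPM in CiMECs and 41.9 CPM in GMECs.

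Of the other members of the group, SLC1A1, SLC6A14 and SLC7A4 were highest in GMECs or CiMECs. The glutamate and aspartate transporter SLC1A1 stood at 2.20 CPM in BFRTV0d, 19.1 CPM in BFRTV4d, 29.9 CPM in BFRTV8d, 43.8 CPM in CiMECs and 181 CPM in GMECs, and the broad neutral and cationic amino acid transporter SLC6A14 at 0.511, 1.84, 5.56, 8.37 and 35.0 CPM. Both had their lowest level in the fibroblasts and their highest in GMECs, where SLC1A1 was 4.12-fold above CiMECs (3.97 to 4.29) and SLC6A14 4.19-fold above (3.83 to 4.58). SLC7A4, a relative of the cationic amino acid transporters whose own substrate is not settled, was near the bottom in the BFRTV tables (1.15 to 2.15 CPM) and stood at 32.7 CPM in CiMECs and 21.7 CPM in GMECs. The noradrenaline transporter SLC6A2 had a level above 10 CPM only at day 4, at 20.6 CPM against 1.03 CPM at day 0 and 3.40 CPM at day 8, and CiMECs and GMECs do not list it. SLC6A17, a vesicular transporter of neutral amino acids known from neurons, was 16.3 CPM at day 0, 0.253 CPM at day 4 and 2.04 CPM in GMECs, and is listed in neither BFRTV8d nor CiMECs.

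Members of the amino acid group at lower levels also differed between the days. SLC43A2 (LAT4), a facilitated carrier of large neutral amino acids, was 9.54 CPM at day 0, 20.5 CPM at day 4, 34.4 CPM at day 8, 3.61 CPM in CiMECs and 1.77 CPM in GMECs, whereas its relative SLC43A1 (LAT3) was highest at day 0, at 31.4 CPM against 15.3 and 18.5 CPM. The neutral amino acid exchanger SLC1A4 (ASCT1) was highest at day 4, at 28.9 CPM, beside 7.71 CPM at day 0, 16.2 CPM at day 8, 0.332 CPM in CiMECs and 3.23 CPM in GMECs. SLC38A1 dipped at day 4 like SLC1A5, with 29.6, 9.46 and 19.8 CPM over the 3 days, 8.02 CPM in CiMECs and 10.3 CPM in GMECs. SLC7A7, the light chain of a cationic amino acid exporter that also pairs with SLC3A2, was 1.40, 7.39, 14.3, 5.89 and 10.2 CPM over the 5 tables. The lysosomal arginine sensor SLC38A9 varied least of these, between 12.4 CPM in CiMECs and 24.6 CPM in BFRTV8d. Between CiMECs and GMECs, 0 of 12 compared members of the group were higher in CiMECs and 5 were lower, beside 5.53% and 26.0% of all genes.

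**Figure D3:**
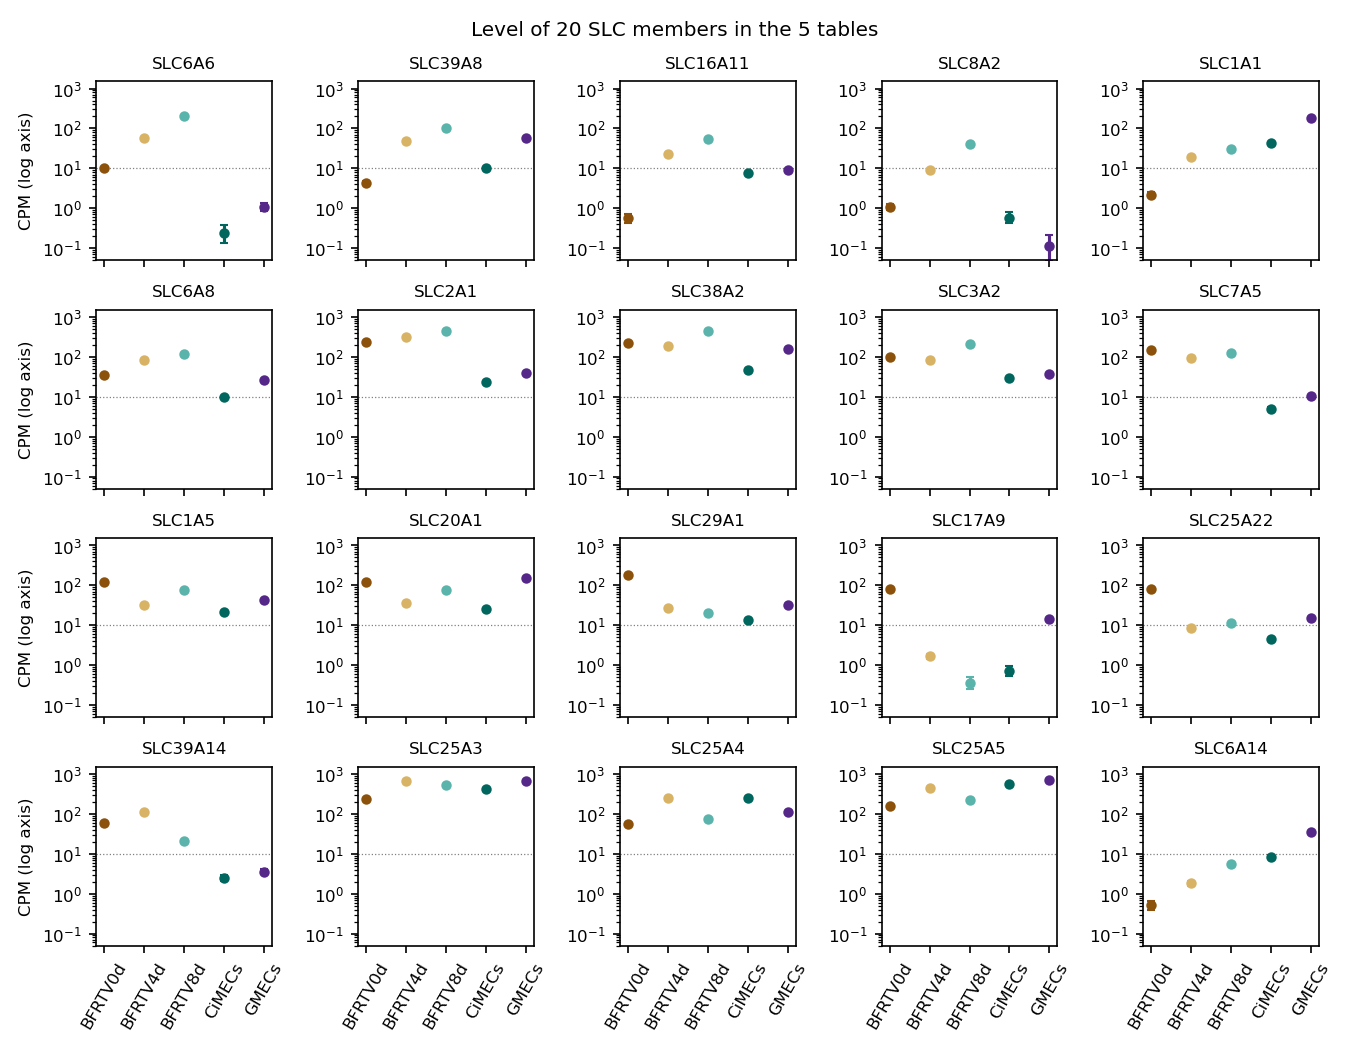
Level of 20 members (vertical axis, CPM, log scale) in BFRTV0d, BFRTV4d, BFRTV8d, CiMECs and GMECs, with points for the table sums, bars for the exact 95% counting interval (mostly smaller than the point) and a dotted line at 10 CPM. SLC6A6, SLC39A8, SLC16A11 and SLC8A2 climb over the 3 BFRTV days, SLC29A1, SLC17A9 and SLC25A22 are highest at day 0, and SLC1A1 and SLC6A14 are highest in GMECs.

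Among the 11 sugar transporters, SLC2A1, the main glucose transporter GLUT1, made up most of the summed level in the BFRTV tables. It stood at 236 CPM in BFRTV0d, 314 CPM in BFRTV4d, 449 CPM in BFRTV8d, 23.7 CPM in CiMECs and 39.8 CPM in GMECs. The induced cells at day 8 held the highest level, 1.90-fold above day 0 (1.88 to 1.93), and CiMECs were 18.9-fold below them (18.1 to 19.9) across the table sets. SLC2A11 went the same way from 2.20 CPM at day 0 to 21.7 and 28.8 CPM, whereas SLC2A10 went from 16.2 CPM at day 0 to 5.20 and 1.41 CPM, and both belong to the same glucose and fructose transporter family. The inositol cotransporter SLC5A3 was 25.6 CPM at day 0 and 5.19 CPM at day 4. The proton-coupled inositol transporter SLC2A13 and the lysosomal family member SLC2A6 were likewise highest at day 0, at 19.8 and 19.5 CPM, and stood at 6.76 and 0.387 CPM at day 8. SLC2A8 (GLUT8), which sits on internal membranes, stayed between 7.67 CPM in BFRTV0d and 13.7 CPM in GMECs. The membrane protein SLC50A1, the mammalian member of the SWEET sugar transporter family, was highest in CiMECs at 72.7 CPM, beside 42.7, 27.1, 41.9 and 39.0 CPM in BFRTV0d, BFRTV4d, BFRTV8d and GMECs. Of 10 sugar transporters compared between day 8 and day 0, 1 was at least 2-fold higher and 5 were lower, beside 19.7% and 28.0% of all genes.

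The 8 monocarboxylate transporters, which move lactate, pyruvate and related molecules with protons, varied among themselves. SLC16A1 (MCT1) had the highest mean level over the 5 tables, with 44.8 CPM at day 0, 76.1 CPM at day 4, 61.3 CPM at day 8, 12.3 CPM in CiMECs and 38.4 CPM in GMECs. In CiMECs SLC16A5 was higher, at 19.9 CPM. SLC16A11 was 0.562 CPM in BFRTV0d, 22.5 CPM in BFRTV4d, 53.3 CPM in BFRTV8d, 7.53 CPM in CiMECs and 9.07 CPM in GMECs, the largest upward fold between day 0 and day 8 among members at 20 CPM or more (94.96-fold, 74.5 to 123). SLC16A7 (MCT2) and SLC16A12, which carries creatine, were both lower at day 8, at 3.47 and 5.44 CPM, than at day 4, at 11.6 and 23.7 CPM. The chaperone BSG, which escorts MCT1 and MCT4 to the membrane, was not a member but stood at 584, 870, 1263, 554 and 668 CPM over the 5 tables in the same order.

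The 31 mitochondrial carriers were the largest group and gave the 2 members with the highest mean level over the 5 tables. SLC25A3, which brings phosphate into the matrix, stood at 236 CPM in BFRTV0d, 657 CPM in BFRTV4d, 527 CPM in BFRTV8d, 415 CPM in CiMECs and 658 CPM in GMECs. SLC25A5 (ANT2), an ADP/ATP exchanger, stood at 154, 443, 217, 565 and 719 CPM in the same order, and SLC25A4 (ANT1), its close relative, at 57.3, 254, 72.5, 245 and 113 CPM. Both exchangers were higher at day 4 than on either side of it, with SLC25A4 4.43-fold above day 0 (4.32 to 4.56) and 3.50-fold above day 8 (3.41 to 3.60). Whether reads of these near-identical paralogs were split correctly could not be checked. SLC25A22, a glutamate carrier, was 81.5 CPM at day 0 and 8.54 and 11.4 CPM at days 4 and 8, and SLC25A15, the ornithine carrier of the urea cycle, went from 36.4 CPM to 5.47 and 3.12 CPM. The mitoferrin SLC25A28, which brings iron into mitochondria, went the other way, at 20.3, 33.3 and 66.3 CPM. The dicarboxylate carrier SLC25A10 was also higher after induction, at 26.5 CPM at day 0, 69.3 CPM at day 4 and 79.3 CPM at day 8, with 17.0 CPM in CiMECs and 46.5 CPM in GMECs. The citrate carrier SLC25A1, which supplies cytosolic citrate for fatty acid synthesis, was highest in GMECs at 145 CPM and 2.61-fold lower in CiMECs (2.52 to 2.71), beside 105, 73.5 and 59.7 CPM over the BFRTV days. SLC25A39, needed for mitochondrial glutathione import, ranged from 68.9 CPM in CiMECs to 165 CPM in BFRTV0d. The oxoglutarate and malate carrier SLC25A11 was highest in CiMECs at 76.0 CPM, beside 71.5, 34.6, 34.8 and 49.2 CPM in BFRTV0d, BFRTV4d, BFRTV8d and GMECs. The pyrimidine nucleotide carriers SLC25A33 and SLC25A36 parted, since SLC25A33 was highest at day 0 (36.8 CPM, against 17.4 CPM at day 8) and SLC25A36 at day 8 (43.8 CPM, against 29.1 CPM at day 0). Of 31 mitochondrial carriers compared between day 8 and day 0, 3 were higher and 7 lower, beside 19.7% and 28.0% of all genes. Of 20 compared between CiMECs and GMECs, 1 was higher and 8 lower in CiMECs, beside 5.53% and 26.0% of all genes.

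Zinc transporters, 15 in number, fell into importers of the SLC39 (ZIP) family, which raise zinc in the cytosol, and exporters of the SLC30 (ZnT) family. SLC39A8 (ZIP8) stood at 4.31 CPM in BFRTV0d, 47.2 CPM in BFRTV4d, 102.6 CPM in BFRTV8d, 10.0 CPM in CiMECs and 56.2 CPM in GMECs, 23.8-fold higher at day 8 than at day 0 (21.8 to 26.1) and 5.60-fold higher in GMECs than in CiMECs (5.17 to 6.07). SLC39A14 (ZIP14), which also carries iron and manganese, was 60.7 CPM at day 0, 113 CPM at day 4, 20.5 CPM at day 8, 2.48 CPM in CiMECs and 3.57 CPM in GMECs. It thus peaked at day 4 while its relative SLC39A8 was highest at day 8. SLC39A7, which releases zinc from the endoplasmic reticulum, was highest at day 0 at 177 CPM, beside 57.9, 46.0, 33.2 and 58.7 CPM in the other tables. SLC39A6 (ZIP6) ranged from 55.0 CPM in GMECs to 133 CPM in BFRTV4d. All 5 SLC30 exporters were lowest in CiMECs or GMECs, beside 50.4% of all genes lowest in CiMECs and 12.7% lowest in GMECs. SLC30A9 was the most abundant of the exporters, at 72.6 CPM in BFRTV0d. Of 15 zinc transporters compared between day 8 and day 0, 1 was higher and 7 lower, beside 19.7% and 28.0% of all genes.

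The heme carrier SLC48A1 had the highest mean level over the 5 tables among the 5 iron, copper, magnesium and heme transporters, but the lowest level of them in BFRTV0d. It was 18.0 CPM at day 0, 80.4 CPM at day 4, 52.0 CPM at day 8, 37.6 CPM in CiMECs and 32.1 CPM in GMECs. The magnesium transporter SLC41A2 was instead 65.1 CPM at day 0 and 20.6, 11.9, 4.59 and 6.22 CPM in the other tables. Among the 11 transporters of ions and pH, the sodium and calcium exchanger SLC8A2 stood at 1.06 CPM in BFRTV0d, 9.14 CPM in BFRTV4d, 39.8 CPM in BFRTV8d, 0.581 CPM in CiMECs and 0.111 CPM in GMECs. SLC12A7, a potassium and chloride cotransporter, was 0.409, 10.1, 23.5, 6.82 and 30.8 CPM, so it was below 1 CPM only in the fibroblasts. The sodium, potassium and chloride cotransporter SLC12A2, known for chloride uptake in secretory epithelia, stayed between 7.23 CPM in BFRTV0d and 15.6 CPM in CiMECs. The sulfate transporter SLC26A2 was highest in GMECs at 64.6 CPM, beside 17.8 to 28.1 CPM in the other tables. The potassium and chloride cotransporter SLC12A4 and the bicarbonate cotransporter SLC4A7 had their highest level at day 0, at 53.7 and 48.5 CPM. At day 8 SLC12A4 was at 11.04 CPM, while SLC4A7 was 20.4 CPM at day 4 and 39.5 CPM at day 8. Of 11 members of the group compared between day 8 and day 0, 4 were higher and 2 lower, beside 19.7% and 28.0% of all genes.

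The phosphate transporter SLC20A1 (PiT1), a sodium-coupled importer, was 119.8 CPM at day 0, 36.3 CPM at day 4, 75.7 CPM at day 8, 25.1 CPM in CiMECs and 158 CPM in GMECs. It was 6.28-fold lower in CiMECs than in GMECs (5.97 to 6.60), the largest fold in that direction after SLC27A5 among members at 20 CPM or more. SLC17A9, which loads nucleotides such as ATP into vesicles, was 80.7 CPM at day 0, 1.70 CPM at day 4, 0.358 CPM at day 8, 0.719 CPM in CiMECs and 14.1 CPM in GMECs, so day 8 was 226-fold below day 0 (163 to 320). SLC17A7, a glutamate loader of vesicles known from neurons, was 0.255 CPM at day 0 and 14.4 and 18.9 CPM at days 4 and 8. The second sodium-coupled phosphate importer SLC20A2 had a narrower range than SLC20A1, from 12.2 CPM in CiMECs to 35.0 CPM in BFRTV0d, and the lysosomal sialic acid exporter SLC17A5 ranged from 18.9 CPM in BFRTV4d to 45.2 CPM in BFRTV0d.

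The nucleoside transporter SLC29A1 (ENT1), which equilibrates adenosine and other nucleosides, had its highest level before induction. It was 179 CPM in BFRTV0d, 26.5 CPM in BFRTV4d, 20.3 CPM in BFRTV8d, 13.6 CPM in CiMECs and 32.3 CPM in GMECs, so day 8 was 8.82-fold lower than day 0 (8.43 to 9.22). SLC5A6, the sodium-coupled carrier of biotin and pantothenate, went the same way, from 18.3 CPM at day 0 to 5.27 and 5.10 CPM, and stood at 3.28 CPM in CiMECs and 11.2 CPM in GMECs. The purine nucleobase transporter SLC43A3 was 99.1 CPM at day 0 and 36.0, 42.6, 13.4 and 35.3 CPM in the other tables. The reduced folate carrier SLC19A1 was instead lowest at day 0, at 1.06 CPM, and stood at 9.35 CPM at day 4 and 15.03 CPM at day 8. The riboflavin transporter SLC52A2 ranged from 22.7 CPM in CiMECs to 35.4 CPM in BFRTV0d, and of the ascorbate transporters SLC23A2 was 20.3 to 22.8 CPM on the BFRTV days while SLC23A1 reached the minimum only in CiMECs. The carnitine transporter SLC22A5 was lowest in the fibroblasts at 3.92 CPM, beside 13.7, 21.0, 4.95 and 17.0 CPM in the other tables. SLC22A18 stood at 25.9 CPM in CiMECs and 1.33 CPM in GMECs, 19.5-fold higher in CiMECs (15.9 to 24.2), against 3.84, 9.12 and 18.0 CPM over the BFRTV days. Among the 6 carriers and enzymes of fatty acids, choline and acetyl-CoA, the choline transporter SLC44A1 was 109 CPM at day 0 and 84.2, 63.2, 12.4 and 20.05 CPM in the other tables, whereas its relative SLC44A2 was highest in GMECs at 51.4 CPM. The fatty acid transporter SLC27A1 was 3.71, 10.3 and 13.8 CPM over the BFRTV days and 1.70 and 2.85 CPM in CiMECs and GMECs. The bile acid and fatty acid acyl-CoA synthetase SLC27A5 was 65.8 CPM in GMECs and 2.70 to 4.28 CPM in the BFRTV tables. It was not listed in CiMECs, where no gene with fewer than 6 positive cells is listed.

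The 5 nucleotide sugar transporters, which feed the Golgi with activated sugars, split. The UDP-galactose transporter SLC35A2, whose substrate is used in lactose synthesis, was highest at day 0 at 28.8 CPM, and stood at 8.81 CPM at day 4, 8.73 CPM at day 8, 13.5 CPM in CiMECs and 21.2 CPM in GMECs. The CMP-sialic acid transporter SLC35A1 was 12.3, 13.6, 31.3, 6.92 and 11.2 CPM in the same order, highest at day 8. SLC35A4 had the highest mean level of the group over the 5 tables, at 113 CPM in BFRTV0d and 29.2 CPM in BFRTV8d, where SLC35A1 was higher. The UDP-N-acetylglucosamine transporter SLC35A3 ranged from 4.01 CPM in CiMECs to 25.6 CPM in BFRTV0d. The 4 symbols that name no carrier were all within 2-fold between BFRTV0d and both later days. Among them the scaffold SLC9A3R1 (NHERF1), which anchors membrane transporters to the cytoskeleton, had the highest level of the 4 in every table except BFRTV0d, at 25.6, 27.5, 44.6, 37.5 and 60.3 CPM over the 5 tables, and SLC7A6OS had the highest in BFRTV0d, at 47.9 CPM.

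Of 20 transporters known from lactation, 19 were found in the tables and 13 were members. Those found but below the minimum or outside the pattern included the phosphate transporter SLC34A2, listed only in BFRTV8d at 0.677 CPM, and the iodide transporter SLC5A5, at 0.111 to 0.474 CPM. The zinc exporter SLC30A2 was listed in no table. Over the list, 3 of 13 compared genes were higher and 3 lower at day 8 than at day 0, beside 19.7% and 28.0% of all genes, while 0 of 14 were higher and 7 lower in CiMECs than in GMECs, beside 5.53% and 26.0%. The median log2 fold of the list was 0.42 at day 8 over day 0 and -1.03 in CiMECs over GMECs, beside -0.29 and -0.51 over all genes. Among 30 transport partners and other carriers, 8 of 20 compared genes were higher and 4 lower at day 8 than at day 0, beside the same 19.7% and 28.0%. Among the 8 was FXYD3, a regulator of the sodium pump, at 16.0, 181, 721, 305 and 3.60 CPM over the 5 tables. The amino acid response is the pathway of ATF4 that acts on amino acid transporters. Of its 8 listed genes, 5 were higher and 0 lower at day 8 than at day 4, beside 10.7% and 7.10% of all genes. CHAC1 was 2.28 CPM at day 4 and 36.0 CPM at day 8. Over the same step, 6 of 18 compared members of the amino acid group were higher and 1 was lower. A link between the pathway and the transporters was not tested.

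Since the cells changed class over the 3 days, the members were also compared between the classes of BFRTV4d, where both were large. In epithelial-marker cells (4904 cells, median 9554 UMIs), 39 of 112 compared members were at least 2-fold higher than in mesenchymal-marker cells (4385 cells, median 9366 UMIs) and 9 were lower, beside 27.3% and 9.17% of all genes. SLC1A1 stood at 34.9 CPM in the epithelial-marker class and 0.921 CPM in the mesenchymal-marker class, SLC39A8 at 87.3 and 4.01 CPM, SLC7A5 at 169 and 12.1 CPM, and SLC6A6 at 101 and 10.9 CPM. Higher in the mesenchymal-marker class were SLC6A2 (38.6 against 2.77 CPM), SLC39A14 (210.4 against 20.1 CPM), SLC16A12 (41.2 against 7.37 CPM) and SLC25A4 (357 against 162 CPM), each a gene with its highest BFRTV level at day 4. SLC16A7, also among the 6 members with the lowest folds between the classes, was instead highest at day 0. Its level was 15.2 CPM in BFRTV0d and 11.6 CPM in BFRTV4d. The class was cut from marker UMIs, and 207 cells lay near the epithelial cut and 386 near the mesenchymal cut.

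**Figure D4:**
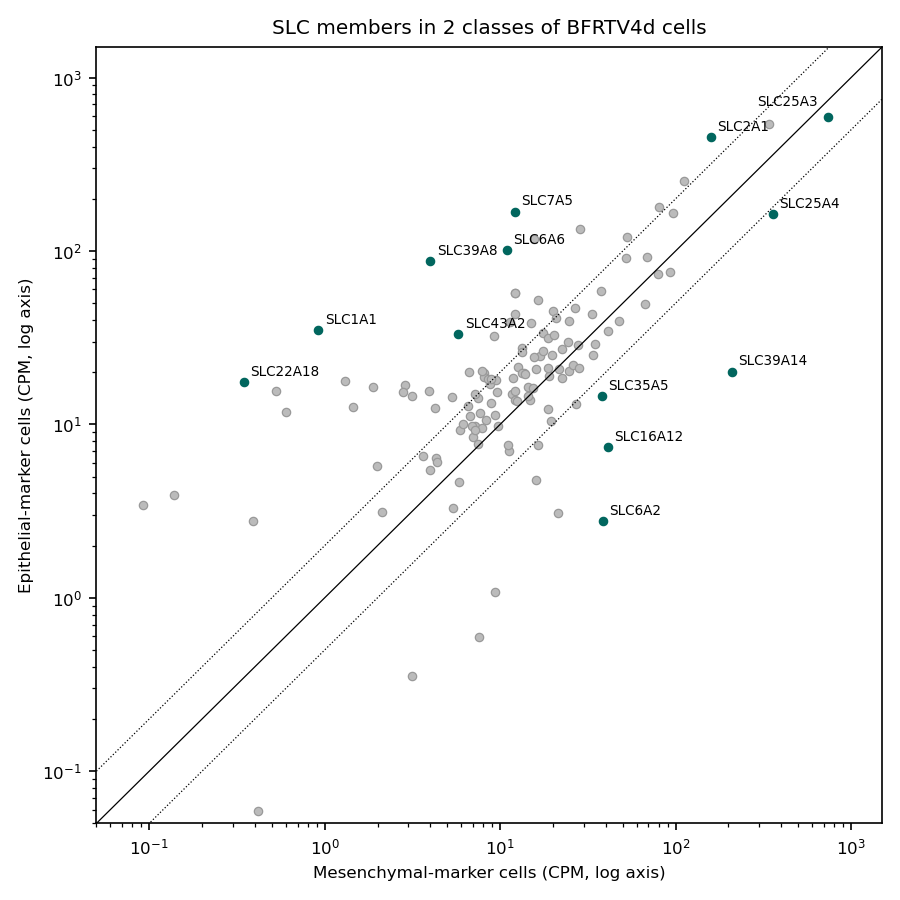
Level of the members in epithelial-marker cells (vertical axis) against mesenchymal-marker cells (horizontal axis) of BFRTV4d, both CPM on a log scale, with the solid line at equal levels and dotted lines at 2-fold, and members without a UMI in at least 1 class left out. SLC1A1, SLC39A8, SLC7A5 and SLC6A6 lie in the upper left, and SLC6A2, SLC39A14 and SLC25A4 lie below the lines.

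Within the epithelial-marker class, 23 of 109 members were higher and 15 lower at day 8 than at day 0, beside 19.0% and 17.7% of all genes, from 663 cells at day 0 and 9712 cells at day 8. The class was deeper at day 0, with a median of 16265 UMIs against 8976 at day 8. Mesenchymal-marker cells of day 0 had a median of 9890 UMIs. In BFRTV0d 52 cells lay near the epithelial cut, and the part of depth or doublets was not tested. SLC6A6 stood at 5.20 CPM in the epithelial-marker cells at day 0 and 212 CPM at day 8 (40.7-fold, 31.9 to 52.8), SLC39A8 at 6.96 and 107 CPM, and SLC29A1 at 153 and 20.4 CPM. SLC1A1, at 16.4 CPM at day 0 and 31.3 CPM at day 8, was less than 2-fold higher (1.91-fold, 1.66 to 2.21), and SLC25A5 was 2.14-fold lower (2.08 to 2.20), although it was higher at day 8 in the whole table. Within the mesenchymal-marker class, 11 of 110 members were higher and 50 lower at day 4 than at day 0, beside 10.5% and 39.8% of all genes. SLC7A5 stood at 151 CPM in these cells at day 0 and 12.1 CPM at day 4, SLC20A1 at 126 and 12.2 CPM, SLC6A2 at 1.09 and 38.6 CPM, and SLC25A4 at 53.6 and 357 CPM. The mesenchymal-marker cells of day 8 were only 222, with 152 near the cut, and are not described.

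In GMECs, 7 of 86 compared members were higher and 2 lower in cycling cells (1989 cells with at least 3 UMIs of 8 mitotic genes, median 23012 UMIs) than in cells with none (2274 cells, median 15773 UMIs), beside 6.70% and 0.830% of all genes. SLC7A5 was 16.9 CPM in the cycling cells and 4.00 CPM in the others (4.23-fold, 3.38 to 5.34), SLC29A1 48.3 and 17.5 CPM, and SLC25A15 11.5 and 3.95 CPM. SLC26A2 was lower, at 31.8 CPM against 98.1 CPM, and SLC6A14 at 22.2 CPM against 49.1 CPM. Those of these members that were also compared in the BFRTV tables had smaller folds there, where SLC7A5 was 1.04-fold, 1.47-fold and 2.12-fold higher in cycling cells over days 0, 4 and 8, SLC29A1 was 1.22-fold, 1.94-fold and 1.63-fold higher, and SLC26A2 was 1.23-fold, 1.16-fold and 1.41-fold lower. SLC25A15 was 1.03-fold lower in cycling cells of BFRTV0d (0.961 to 1.11), and in CiMECs SLC29A1 was 2.08-fold higher and SLC26A2 1.101-fold lower (0.952 to 1.28). The difference between tables was not tested. Cycling cells were chosen by UMIs and were deeper, and the part of depth in these differences was not tested.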

How the data were processed

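The authors deposited 1 table of whole-number UMI counts per group, with genes in rows and cell barcodes in columns and no normalization. Libraries came from version 2 of the 10x Genomics 3′ chemistry, and per the submitters' processing notes reads went through FastQC 0.10.1 and Cell Ranger (version not given). Build and annotation were not given in the sources used here. All 135 member symbols matched RefSeq gene names for assembly ARS1.2, from which no coordinates were taken.

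Counts were summed over the barcodes of each table in Python 3.11.15 (numpy 2.4.6, pandas 2.3.3, scipy 1.17.1, matplotlib 3.10.9) and scaled to CPM without ribosomal protein genes. Because the kit counts 1 tag per molecule at the 3′ end, CPM was not divided by gene length. Folds are ratios of CPM values, and their exact 95% intervals (conditional binomial) cover counting error only. A listed gene at 0 was set to 3 counts, and an unlisted gene to the fewest cells in which that table lists any gene, 11 in the BFRTV tables and 6 in the others. Comparisons took in genes that reached 10 CPM in either table, and at least 2-fold counted as higher or lower. With 1 pooled table per group no test was possible. The fold script was tested on simulated data.

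Cells were classed when at least 5 UMIs of epithelial and mesenchymal markers were found and at least 80% came from 1 set. Doublets were not called, and free RNA was not removed. The members and gene lists were chosen with earlier results of these data known. Named were the 6 top and 6 bottom members by fold in each comparison at 20 CPM or more, also between the classes of BFRTV4d, the 12 with the highest mean level, the highest and most variable member of each transporter group, the lactation list and members within 10% of the minimum; other members named in the text were chosen after their values were seen, and a few members are not reported here by name. Alternatives were edgeR 4.0.16 TMM factors, DESeq2 1.42.0 median-of-ratios size factors, totals with ribosomal protein genes or without the 10 highest genes, other minimum levels, folds, barcode filters and marker thresholds.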

Additional observations from a re-analysis of the deposited data

How the results depend on the processing

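Each group is 1 pooled table, so no replicate could be left out and the counting intervals do not hold the spread between cultures. Of 134 alternative values of the member counts, 104 stayed within 1.5 times the main count and 30 did not. Of 432 alternative log2 folds of named members, 396 were counted as the same, 36 as moved and none as reversed. Many members were named for their extreme folds in these data, so few reversals could arise. Requiring 4-fold left 12 higher and 9 lower members at day 4 over day 0, 15 and 13 at day 8 over day 0, 1 and 3 at day 8 over day 4, 1 and 8 in CiMECs over GMECs, 1 and 31 in CiMECs over BFRTV8d, 22 lower in GMECs over BFRTV0d, and 18 and 4 between the classes of BFRTV4d. A minimum of 20 CPM gave 16 higher at day 8 over day 0, 22 lower in CiMECs over GMECs, 34 lower in CiMECs over BFRTV8d and 22 higher in the epithelial-marker class. With no minimum, 12 were lower at day 8 than at day 4, and 7 were higher in CiMECs than in GMECs. With TMM factors, 9 members were higher and 19 lower in CiMECs than in GMECs, and 15 higher and 37 lower than in BFRTV8d. With median-of-ratios size factors these counts were 10 and 18, and 15 and 35. Totals with ribosomal protein genes gave 21 lower in CiMECs than in GMECs, 2 higher in CiMECs than in BFRTV8d, and 83 lower in GMECs than in BFRTV0d. The scalings shift all folds of a comparison by a constant, and a higher minimum or fold leaves fewer genes, by construction. Leaving out barcodes under 2000 UMIs or over 3 times the median, the 10 highest genes, or using stricter marker thresholds kept each count it was run for within 1.5 times.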

Other observations

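The number of members seen in a single cell was compared at equal depth, after each cell was thinned to 3000 UMIs without ribosomal protein genes. A mean of 13.3, 11.2 and 12.3 members was detected per cell over BFRTV days 0, 4 and 8, 6.75 in CiMECs and 10.2 in GMECs, with SDs over cells of 2.87 to 3.60. Without thinning the medians were 35, 26, 28, 19 and 29. Thinning left out 0, 45, 8, 938 and 961 shallower cells in the same order, so the CiMECs and GMECs values rest on the deeper cells. Detected genes other than the members were not counted per cell. Over all genes above the minimum the median level was also lowest in CiMECs, at 13.1 CPM. Whether the lower number in CiMECs is particular to the members is therefore not shown.

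Among the transport partners and other carriers, the pump, pore and channel genes also differed between tables. CLCA2, a chloride channel regulator, was 3.43, 36.0 and 102.4 CPM over the 3 BFRTV days, 0.249 CPM in CiMECs and not listed in GMECs. ABCC4, an exporter of cyclic nucleotides and drugs, was 41.1, 125 and 196 CPM over the 3 days, 6.04 CPM in CiMECs and 5.78 CPM in GMECs. ATP2C2, a Golgi calcium and manganese pump, was 0.145, 6.69 and 33.5 CPM over the 3 days, 0.858 CPM in CiMECs and 2.11 CPM in GMECs. The sodium channel subunit SCNN1A was 73.2 CPM in GMECs and at most 3.50 CPM in the other tables.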
